A study of Mus musculus with 20 samples.

Results

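Visceral endoderm, the outer layer of the early embryo that feeds the inner tissues before a liver exists, secretes carrier proteins and apolipoproteins. 8 such genes, Afp, Ttr, Rbp4, Apoa1, Apoa4, Apob, Apoe and Apom, were followed here. They were matched by gene symbol and stood among 18193 genes measured, and the list was drawn up with earlier results of these data known. The platform annotation gave them 21 of 45037 probe sets that are not controls, and each gene was represented by its brightest probe set, the one with the highest mean over the 20 arrays. Values are log2 RMA values, so a difference of 1 is 2-fold.

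Carrier proteins of blood plasma bind small hydrophobic cargo, and apolipoproteins coat lipid particles so that fat can be moved between tissues. Both are secreted by visceral endoderm and the yolk sac in the embryo and mainly by the liver later. Gata4, a zinc finger transcription factor, drives ES cells into primitive endoderm, from which visceral and parietal endoderm descend. Dnmt3a and Dnmt3b place new methyl groups on the cytosines of CpG dinucleotides.

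The study asked whether DNA methylation limits what Gata4 can switch on in mesoderm. Mouse ES cells of the 129sv/Jae background lacked both Dnmt3a and Dnmt3b (DKO) or were wild type (WT), and each genotype was profiled on Affymetrix arrays in 5 states with 2 arrays per group. The cells carried Gata4GR, Gata4 fused to the hormone-binding part of the human glucocorticoid receptor and driven by the CAG promoter, which dexamethasone (Dex) activates. ES cells had received no Dex, and primitive endoderm (PE) came from ES cells kept in maintenance medium with 100 nM Dex for 4 days. Flk1(+) cells were mesoderm sorted for Flk1 and PDGFRα after culture on type IV collagen, and Dex- and Dex+ cells were this sorted mesoderm cultured on for 4 days without or with 100 nM Dex. The paper reports that the collagen condition was unstable. Endoderm differentiation of DKO mesoderm with Dex was at first more efficient than after co-culture with OP9 stromal cells, and later about equal to it. 1 transgenic clone stood for each genotype, so that genotype and clone cannot be told apart. By the paper's methods, more DKO than WT ES cells were plated per collagen dish, and the paper reports a low recovery of DKO Flk1(+) cells. In Flk1(+), Dex- and Dex+ cells, genotype therefore cannot be told apart from plating density and the fraction sorted. Replicate 1 of both Flk1(+) groups was the parental line without the transgene. None of the 20 arrays is of cells without the transgene that were given Dex.

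Dnmt3a and Dnmt3b differed between DKO and WT cells by -3.96 to -1.51 in ES, Flk1(+) and Dex- cells and by -5.43 (Dnmt3b) and -2.03 (Dnmt3a) in PE, all lower in DKO, while in Dex+ cells the differences of -0.80 and -0.81 did not pass. Over genes, replicates had a Pearson r between 0.979 in WT Flk1(+) cells and 0.996 in WT PE. The 6 visceral endoderm markers examined (Amn, Cubn, Lrp2, Hnf4a, Ihh and Cited1) averaged 9.19 and 9.30 in DKO Dex+ arrays, against 6.25 and 6.38 in WT Dex+ arrays. In PE they averaged 9.16 and 9.39 in DKO and 9.12 and 9.45 in WT, and in all other groups between 5.63 and 6.53. Parietal endoderm markers moved too: the 7 examined averaged 12.82 and 13.12 in DKO Dex+ arrays, against 11.05 and 11.11 in WT Dex+ arrays. Mural and smooth muscle markers stood at 8.07 and 8.40 in DKO Dex+ arrays, against 10.15 and 10.17 in WT Dex+ arrays. Hepatocyte markers (Alb, Tat, Cyp3a11, Cps1, Tdo2 and G6pc) averaged 4.99 to 5.35 in every array. These were bulk samples, in which more cells of a type and more RNA per cell cannot be told apart.

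A gene passed where it changed 2-fold or more and its limma p-value, after Benjamini-Hochberg adjustment over all genes of the comparison, was below 0.05. Higher, lower, rose and fell are used of changes that passed. Changes are given with the standard error of the fit, and levels are never set between genes, since probe sets differ in brightness for the same amount of RNA.

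**Figure D1:**
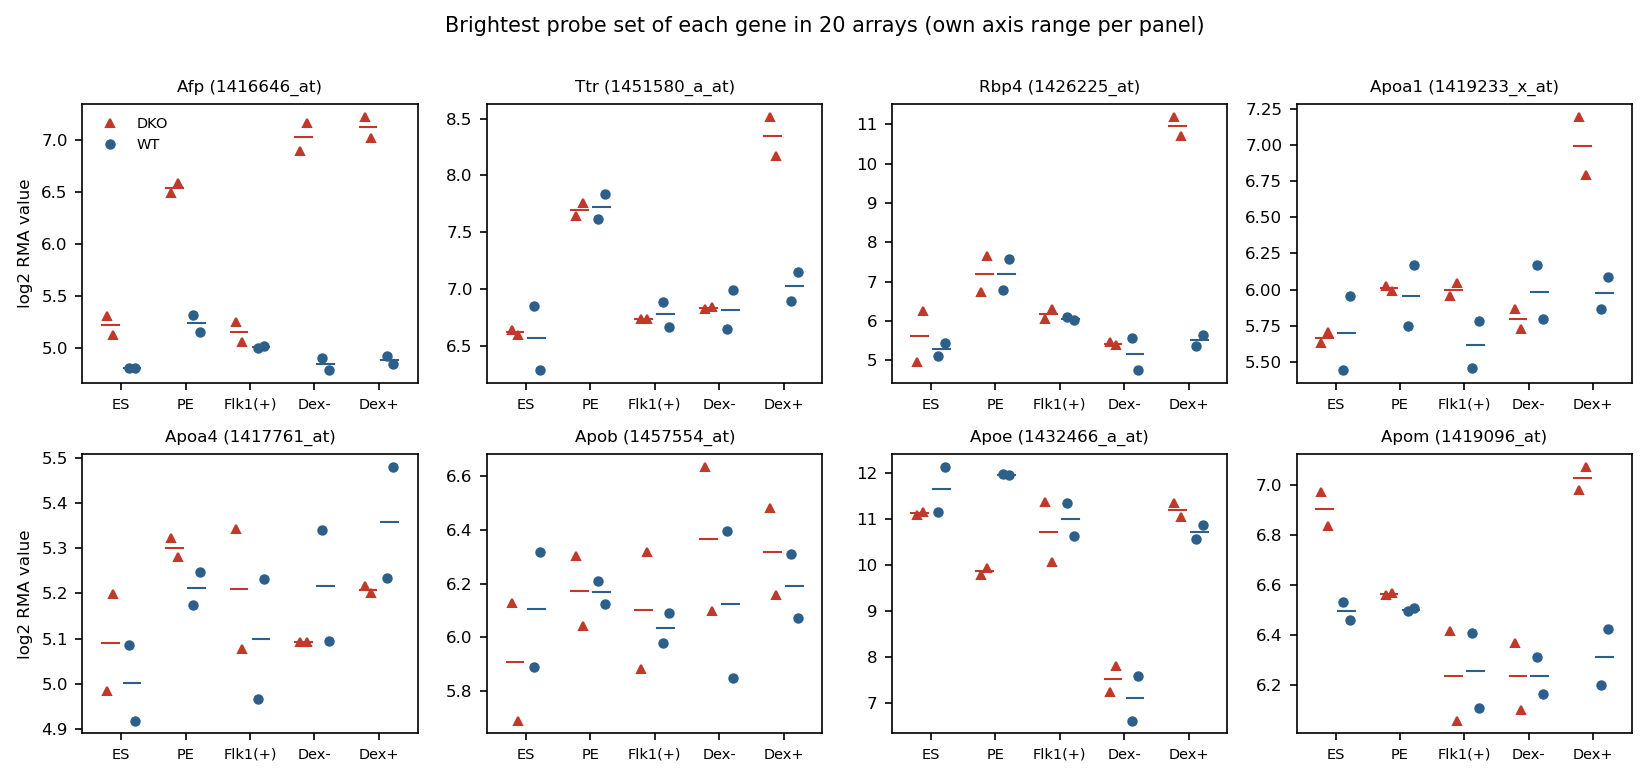
Log2 RMA values (vertical axis, own range in each panel) of the brightest probe set of the 8 genes in DKO cells (triangles) and WT cells (circles) over the 5 states (horizontal axis). Each point is an array, and each short line is the mean of 2 arrays. Rbp4 stood at 11.20 and 10.70 in DKO Dex+ cells and at 4.74 to 7.66 in all other arrays, Apoe was lowest in Dex- cells of both genotypes, and Afp was at 6.49 to 7.22 in DKO PE, Dex- and Dex+ cells and at 4.79 to 5.32 in all other arrays.

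Rbp4, the plasma carrier of retinol, had the largest change among the brightest probe sets of the 8 genes. Its single probe set read 11.20 and 10.70 in DKO Dex+ cells, against 5.46 and 5.39 in DKO Dex- cells. In WT cells the values were 5.37 and 5.65 with Dex and 5.57 and 4.74 without it. DKO Dex+ cells thus stood apart from all 18 other arrays, whereas the WT arrays with and without Dex overlapped.

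With Dex, Rbp4 rose by 5.52 ± 0.40 in DKO cells (adjusted p = 1.7e-07), which is 46.0-fold, and changed by 0.35 ± 0.40 in WT cells, which did not pass (adjusted p = 0.863). The difference between these responses was itself tested and passed (5.17 ± 0.56, adjusted p = 4.53e-05). DKO Dex+ cells were above WT Dex+ cells by 5.44 ± 0.40 (adjusted p = 2.25e-07). In DKO and WT cells without Dex the difference was 0.27 ± 0.40 and did not pass. Within scan day 2, which held 2 DKO arrays with Dex and only 1 without it, the change was 5.56 for Rbp4, 1.51 for Ttr and 1.27 for Apoa1.

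In PE the arrays read 6.75 and 7.66 in DKO and 6.80 and 7.58 in WT, so that the genotypes overlapped. ES cells were at 4.97 and 6.25 in DKO and at 5.12 and 5.45 in WT. Rbp4 was higher in PE than in ES cells of both genotypes, by 1.59 ± 0.40 in DKO (adjusted p = 0.00544) and by 1.91 ± 0.40 in WT (adjusted p = 0.00176). The DKO change fell short of the threshold without DKO ES replicate 1 (0.955) or DKO PE replicate 2.

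Set against PE of the same genotype, Dex+ mesoderm was higher for Rbp4 in DKO (3.75 ± 0.40, adjusted p = 2.05e-05) and lower in WT (-1.68 ± 0.40, adjusted p = 0.00531). The WT difference did not pass without WT PE replicate 2. Flk1(+) cells were at 6.06 and 6.30 in DKO and 6.09 and 6.03 in WT. In the order of group means DKO Dex+ cells came first, then DKO PE and WT PE, which overlapped, then both Flk1(+) groups. DKO ES, WT Dex+, DKO Dex-, WT ES and WT Dex- cells followed, with overlapping arrays, and DKO ES cells overlapped the Flk1(+) cells too.

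The RefSeq promoter table (build GRCm38.p6) held windows for 7 of the 8 genes, 10 in all, and these sequences are shown because CpG dinucleotides are where the deleted enzymes act. DNA methylation was not measured here. Rbp4 has 2 windows of very different CpG content. The 250 bases before the first start site (chr19:38125322-38125571, minus strand) held 5 CpG, and those before the other (chr19:38124812-38125061, minus strand) held 28, more than 92.4% of the 32851 windows in the table. The observed over expected CpG ratio was 0.485 at the first and 0.9 at the other, against a median of 0.373 over the table. CpG dinucleotides are in capitals.
Rbp4, first start site: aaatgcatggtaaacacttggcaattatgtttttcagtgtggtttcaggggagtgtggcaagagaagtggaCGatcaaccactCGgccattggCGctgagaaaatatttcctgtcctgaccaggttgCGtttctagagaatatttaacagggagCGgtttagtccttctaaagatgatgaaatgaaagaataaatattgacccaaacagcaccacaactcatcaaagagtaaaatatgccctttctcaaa
Rbp4, other start site: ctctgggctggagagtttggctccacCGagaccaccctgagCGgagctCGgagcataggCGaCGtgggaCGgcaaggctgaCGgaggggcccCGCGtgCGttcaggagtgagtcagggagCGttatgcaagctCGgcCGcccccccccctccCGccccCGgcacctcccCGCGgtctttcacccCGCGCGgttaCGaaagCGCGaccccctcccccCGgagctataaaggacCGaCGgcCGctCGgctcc

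Which start site the cells used cannot be read from a 3′ array probe set. The motif of GATA factors was searched on both strands in several spellings. Those that began with A were written AGATAA and, with another last letter, AGATAG. Those that began with T were written TGATAA and, with another last letter, TGATAG. Neither Rbp4 window held a match. Matches were in 26.5% of all windows and in 2 of the 10 windows of these genes, 1 of Apoa1 and 1 of Apoe.

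Ttr, the carrier of thyroid hormone that also holds Rbp4 in plasma, shared this pattern. Its brightest probe set read 8.52 and 8.17 in DKO Dex+ cells and 6.83 and 6.84 in DKO Dex- cells. WT cells read 6.90 and 7.15 with Dex and 6.65 and 6.99 without it. DKO Dex+ was again the highest group and overlapped no other, and the WT arrays with and without Dex overlapped.

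The other 3 Ttr probe sets gave far wider changes. Their names end in _s_at or _x_at, a class open to cross-hybridisation with other transcripts. On probe set 1454608_x_at, DKO Dex+ cells were at 10.05 and 9.61, DKO Dex- cells at 3.97 and 3.62. WT cells were at 3.69 and 3.66 with Dex and at 3.77 and 3.88 without it. The 4 probe sets correlated at 0.943 to 0.998 over the 20 arrays, and on each of them DKO Dex+ cells were the highest group. The group with the lowest mean differed between the 4.

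Ttr rose with Dex in DKO cells by 1.51 ± 0.19 on the brightest probe set (adjusted p = 3.76e-05) and by 5.68, 6.04 and 5.88 on the others. In WT cells it changed by 0.21 ± 0.19 (adjusted p = 0.8) and by -0.19 to 0.01 on the others. The genotypes differed in this response by 1.30 ± 0.27 on the brightest (adjusted p = 0.00701) and by 6.19 ± 0.38 on 1454608_x_at (adjusted p = 5.64e-07).

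In PE, Ttr was at 7.64 and 7.76 in DKO and 7.62 and 7.83 in WT, against ES values of 6.64 and 6.60 in DKO and 6.85 and 6.28 in WT. It was higher in PE in both genotypes, by 1.08 ± 0.19 in DKO (adjusted p = 0.000351) and 1.16 ± 0.19 in WT (adjusted p = 0.000238), and by 3.62 to 4.75 on the other probe sets. Without WT ES replicate 2 the WT change was 0.872. DKO Dex+ mesoderm exceeded DKO PE by 0.64 ± 0.19 on the brightest probe set, short of 2-fold, and by 1.89 to 2.09 on the other 3, which passed. WT Dex+ mesoderm lay below WT PE, by 0.70 on the brightest and lower by 4.46 to 4.70 on the other 3.

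**Figure D2:**
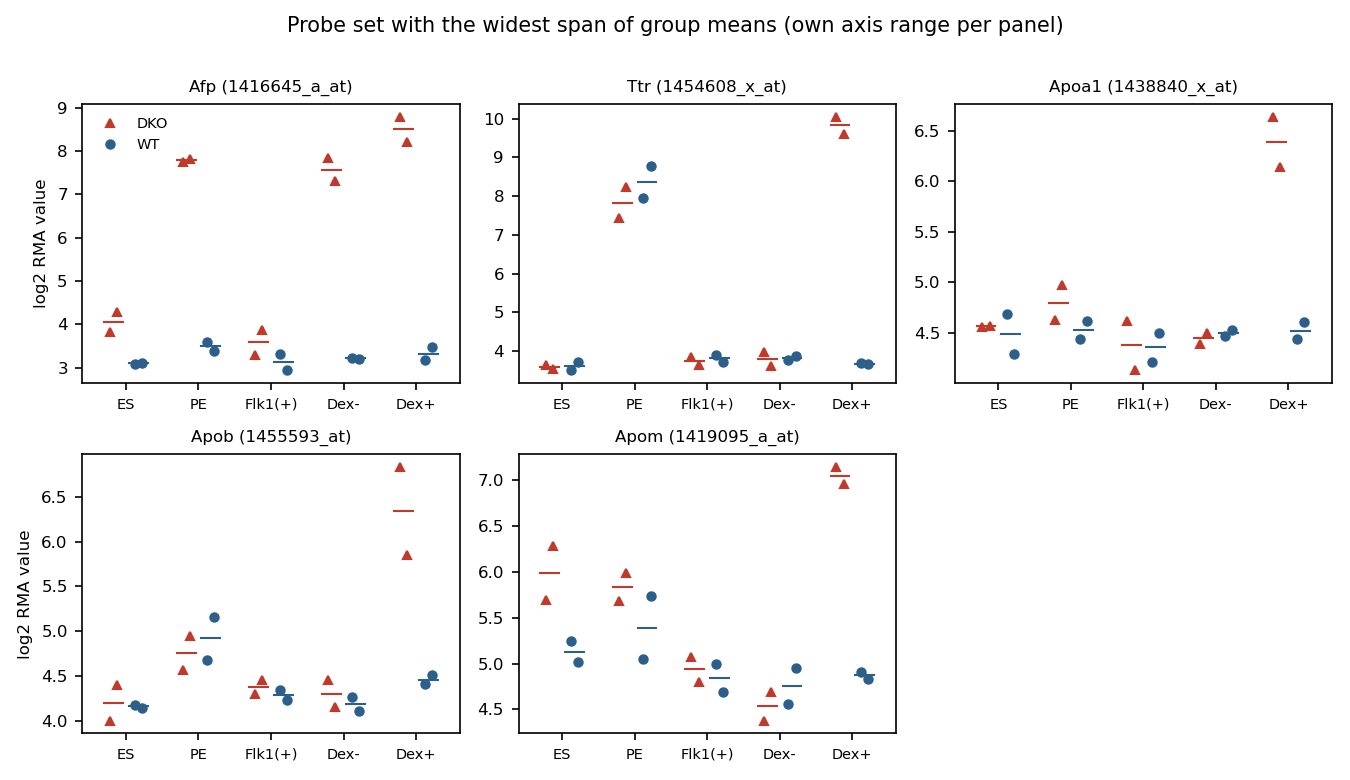
Log2 RMA values (vertical axis, own range in each panel) of the probe set with the widest span of group means, for the 5 genes where it is not the brightest, in DKO cells (triangles) and WT cells (circles) over the 5 states (horizontal axis). Each point is an array, and each short line is the mean of 2 arrays. Ttr, Apoa1, Apob and Apom were highest in DKO Dex+ cells (Ttr at 10.05 and 9.61), and Afp was at 7.30 to 8.79 in DKO PE, Dex- and Dex+ cells and at 2.93 to 4.27 in all other arrays.

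Afp, the fetal plasma protein that neighbours Alb in the genome, stood apart between the genotypes in PE, Dex- and Dex+ cells. The brightest probe set read 6.49 and 6.59 in DKO PE, against 5.32 and 5.16 in WT PE. In Dex- cells it was at 6.90 and 7.16 in DKO and 4.91 and 4.79 in WT, and in Dex+ cells at 7.22 and 7.02 in DKO and 4.93 and 4.85 in WT. No DKO array of these states overlapped a WT array.

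In ES cells Afp was at 5.31 and 5.13 in DKO and 4.81 and 4.82 in WT, and in Flk1(+) cells at 5.25 and 5.06 in DKO and 5.00 and 5.02 in WT. Those differences, 0.41 ± 0.13 and 0.15 ± 0.13, did not pass. Afp was higher in DKO in PE (1.30 ± 0.13, adjusted p = 3.45e-05), in Dex- cells (2.18 ± 0.13, adjusted p = 8.95e-08) and in Dex+ cells (2.23 ± 0.13, adjusted p = 3.6e-08). On the brightest probe set Dex changed Afp in mesoderm by 0.09 ± 0.13 in DKO and 0.04 ± 0.13 in WT, and neither passed.

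On Afp probe set 1416645_a_at the genotypes were further apart. DKO cells read 7.75 and 7.81 in PE, 7.83 and 7.30 in Dex- cells and 8.79 and 8.20 in Dex+ cells. WT cells read 3.60 and 3.39, 3.23 and 3.20, and 3.17 and 3.48 in the same states. The differences were 4.29 ± 0.25, 4.35 ± 0.25 and 5.17 ± 0.25, and the probe set 1436879_x_at gave 2.77, 2.35 and 3.26. Group means in DKO Dex- and Dex+ cells were 7.564 and 8.498 on 1416645_a_at and 5.853 and 6.835 on 1436879_x_at, changes that did not pass.

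Another Afp probe set, 1436880_at, stayed at 4.78 to 5.92 in all 20 arrays and correlated with the brightest at 0.013. Its differences between DKO and WT were -0.004 in PE and -0.377 in Dex- cells. The 5 Afp probe sets therefore did not give a single answer, and 3 of the other 4 correlated with the brightest at 0.79 to 0.973.

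Within DKO cells Afp rose in 2 separate steps of culture. It was higher in PE than in ES cells by 1.31 ± 0.13 (adjusted p = 2.41e-06) and in Dex- than in Flk1(+) cells by 1.87 ± 0.13 (adjusted p = 1.46e-07), while the WT changes were 0.42 ± 0.13 and -0.16 ± 0.13. The difference between genotypes in the PE response was 0.89 ± 0.19 on the brightest probe set, short of 2-fold, and 3.34 ± 0.35 on 1416645_a_at (adjusted p = 0.000337). The 5 Afp calls on the brightest probe set, 3 between genotypes and 2 within DKO cells, held with the replicate block and with any 1 array of the groups compared left out. The 4 of them that do not involve ES cells also held with the scan day block, which could not be fitted for PE against ES.

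2 macrophage markers differed between the genotypes in states where Afp did. Cd68, a lysosomal membrane protein, was at 9.40 and 9.91 in DKO PE, against 6.58 and 6.69 in WT PE, at 7.79 and 7.92 in DKO Dex- cells, against 5.40 and 5.49 in WT, and at 8.71 and 8.59 in DKO Dex+ cells, against 5.23 and 5.45 in WT. Csf1r, the receptor for colony-stimulating factor 1, was higher in DKO in PE (1.96 ± 0.37) and in Dex- cells (1.94 ± 0.37). In Dex+ cells Csf1r was at 9.975 and 9.453 in DKO and at 9.154 and 8.383 in WT, a difference under 2-fold. Of the 6 macrophage markers examined, whose mean was 6.72 to 6.89 in the DKO arrays of these states and 5.91 to 6.08 in the WT arrays, the pan-leukocyte Ptprc ranged only from 3.59 to 4.52 and the myeloid factor Spi1 from 5.71 to 6.05 over all arrays. Adgre1 ranged from 5.699 to 6.181 over all arrays. Lyz2 was at 6.919 and 7.762 in DKO Dex- cells and at 5.795 to 6.6 in all other arrays. The part of the macrophage markers in the Afp result was not tested.

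The 250 bases before the Afp start (chr5:90490464-90490713, plus strand) are shown as the contrast to Rbp4. They held 1 CpG, a count that 7.9% of the windows in the table fell below, and no match of the GATA motif. The CpG is in capitals.
Afp: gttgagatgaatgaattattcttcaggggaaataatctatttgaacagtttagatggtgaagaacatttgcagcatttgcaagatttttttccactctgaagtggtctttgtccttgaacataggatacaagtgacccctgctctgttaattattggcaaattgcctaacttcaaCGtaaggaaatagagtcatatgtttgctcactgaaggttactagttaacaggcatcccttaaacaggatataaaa

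Alb, the neighbour of Afp among coding genes, passed in none of the 17 comparisons and lay between 5.10 and 5.82 in all arrays.

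Apoa1, the main protein of high-density lipoprotein, had 4 probe sets, all highest in DKO Dex+ cells. The brightest, 1419233_x_at, is of the class open to cross-hybridisation, as are 1455201_x_at and 1438840_x_at. The name of the remaining probe set, 1419232_a_at, ends otherwise. The brightest read 7.20 and 6.79 in DKO Dex+ cells, against 5.86 and 5.73 in DKO Dex- cells. In WT cells it read 5.87 and 6.09 with Dex and 6.17 and 5.79 without it. Both DKO Dex+ arrays lay above every other array.

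Apoa1 rose with Dex in DKO cells by 1.20 ± 0.21 (adjusted p = 0.000661). On the other probe sets it changed by 1.15, 1.94 and 0.94, of which the last, on 1419232_a_at, did not reach 2-fold. In WT cells the change was -0.002 ± 0.21, which did not pass, and the difference between the responses was 1.20 ± 0.29 (adjusted p = 0.02). That difference lost its call without any 1 of 4 of the 8 arrays it uses (WT Dex- replicate 1, DKO Dex- replicate 2, WT Dex+ replicate 1 or DKO Dex+ replicate 1), with values of 0.999 to 1.41 over the 8. On 1438840_x_at it was 1.92 ± 0.29 (adjusted p = 0.00153). The rise in DKO was 0.997 without DKO Dex+ replicate 1. DKO Dex+ cells were above WT Dex+ cells by 1.02 ± 0.21 (adjusted p = 0.00247), and this was under 2-fold without WT Dex+ replicate 1 or DKO Dex+ replicate 1 (0.813 at the lowest) and with arrays centred on their medians (0.996). In PE the brightest probe set was at 6.03 and 5.99 in DKO and 5.75 and 6.17 in WT, and it passed in neither genotype against ES cells.

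The 250 bases before the Apoa1 start (chr9:46228380-46228629, plus strand) held 4 CpG, shown in capitals, and 1 GATA motif match, CTATCT on this strand, whose first base lies 219 bases before the start.
Apoa1: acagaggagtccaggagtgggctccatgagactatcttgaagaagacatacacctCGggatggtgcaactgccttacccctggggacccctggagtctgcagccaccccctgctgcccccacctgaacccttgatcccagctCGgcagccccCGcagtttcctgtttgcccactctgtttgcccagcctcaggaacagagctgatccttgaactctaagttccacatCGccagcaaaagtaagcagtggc

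Apoa4, which shares a cluster with Apoa1 and has Apoc3 between them, passed nowhere. Its brightest probe set lay between 4.92 and 5.48 in all 20 arrays, and its group means spanned 0.36, against a median gap between replicates of 0.19. Neither of its probe sets passed in any of the 17 comparisons, and neither did Apoc3, Apoa5 or, in the cluster of Apoe, Apoc1, Apoc2 and Apoc4. Apoc2, the cofactor of lipoprotein lipase, came nearest, with a change of 0.74 ± 0.18 with Dex in DKO cells (adjusted p = 0.00768).

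Apob, the structural protein of the larger lipoproteins, was read by a pair of probe sets that disagreed. The brightest lay between 5.69 and 6.63 in all arrays and passed in no comparison. On 1455593_at, DKO Dex+ cells were at 6.83 and 5.85 and DKO Dex- cells at 4.46 and 4.16, whereas WT cells were at 4.42 and 4.51 with Dex and 4.27 and 4.11 without it. The DKO Dex+ replicates were 0.976 apart, the widest replicate gap of this probe set, yet both lay above all other arrays.

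With Dex the signal of 1455593_at rose by 2.04 ± 0.26 in DKO cells (adjusted p = 0.000103) and changed by 0.28 in WT cells, and the responses differed by 1.76 ± 0.37 (adjusted p = 0.0144). In PE it was at 4.58 and 4.95 in DKO and 4.68 and 5.16 in WT, and against ES cells it did not pass. The 2 Apob probe sets correlated at 0.321 over the arrays.

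Apom, a lipocalin apolipoprotein that carries sphingosine 1-phosphate, changed in the same cells. The brightest probe set read 6.98 and 7.07 in DKO Dex+ cells, 6.37 and 6.10 in DKO Dex- cells, and 6.20 and 6.42 in WT Dex+ cells, but DKO ES cells were almost as high, at 6.97 and 6.84. Its change with Dex in DKO, 0.79 ± 0.15, was under 2-fold (adjusted p = 0.00167). On 1419095_a_at DKO Dex+ cells were at 7.15 and 6.96 and DKO Dex- cells at 4.38 and 4.69, WT cells at 4.90 and 4.84 with Dex and 4.56 and 4.95 without it.

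Apom on that probe set rose by 2.52 ± 0.24 in DKO cells (adjusted p = 8.34e-06), and the responses of the genotypes differed by 2.41 ± 0.34 (adjusted p = 0.00105). In ES cells it was at 5.70 and 6.28 in DKO and 5.24 and 5.02 in WT, a difference that did not pass. Its signal on this probe set fell by 1.05 in DKO Flk1(+) cells relative to DKO ES cells (adjusted p = 0.00892), the only fall of any of the 21 probe sets in either Flk1(+) comparison.

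Apoe, the ligand through which lipid particles bind receptors of the LDL receptor family, behaved differently from the other 7 genes. It was at 11.10 and 11.15 in DKO ES cells and 11.17 and 12.14 in WT ES cells, at 9.79 and 9.93 in DKO PE and 11.98 and 11.96 in WT PE, and at 11.37 and 10.06 in DKO and 11.34 and 10.64 in WT Flk1(+) cells. In Dex- cells it was at 7.23 and 7.80 in DKO and 6.61 and 7.59 in WT, the lowest values of the series in both genotypes. With Dex it stood at 11.36 and 11.06 in DKO and 10.57 and 10.86 in WT.

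Apoe was lower in Dex- than in Flk1(+) cells of both genotypes, with changes of -3.20 ± 0.41 in DKO (adjusted p = 2.9e-05) and -3.89 ± 0.41 in WT (adjusted p = 4.74e-06). It was higher in Dex+ than in Dex- cells of both genotypes, by 3.69 ± 0.41 in DKO (adjusted p = 1.34e-05) and 3.61 ± 0.41 in WT (adjusted p = 0.000123). The difference between these responses was 0.07 ± 0.58 (adjusted p = 0.979). Within scan day 2, which held 2 Dex+ arrays but only 1 Dex- array of each genotype, the changes were 3.40 in DKO and 3.13 in WT.

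In PE, Apoe was lower in DKO than in WT (-2.11 ± 0.41, adjusted p = 0.0085), and no arrays overlapped. The 5 pluripotent cell markers examined averaged 6.33 and 6.61 in DKO PE, against 9.07 and 9.27 in WT PE, and their part in the Apoe difference was not tested. It was lower in PE than in ES cells in DKO (-1.26 ± 0.41, adjusted p = 0.0272) and changed by 0.32 ± 0.41 in WT, but the difference between the PE responses, -1.58 ± 0.58, did not pass (adjusted p = 0.342). WT Dex+ cells were below WT PE (-1.26 ± 0.41, adjusted p = 0.0381). All 3 of these calls were lost when any 1 of their 4 arrays was left out, the first with adjusted p-values of 0.0661 to 0.0756, while the changes stayed at -2.18 to -2.04, -1.33 to -1.20 and -1.40 to -1.11.

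Apoe has 3 promoter windows in the RefSeq table, with 8, 9 and 10 CpG. Apob has 7, Apom 6 and Apoa4 1. The median of all windows is 6.

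**Figure D3:**
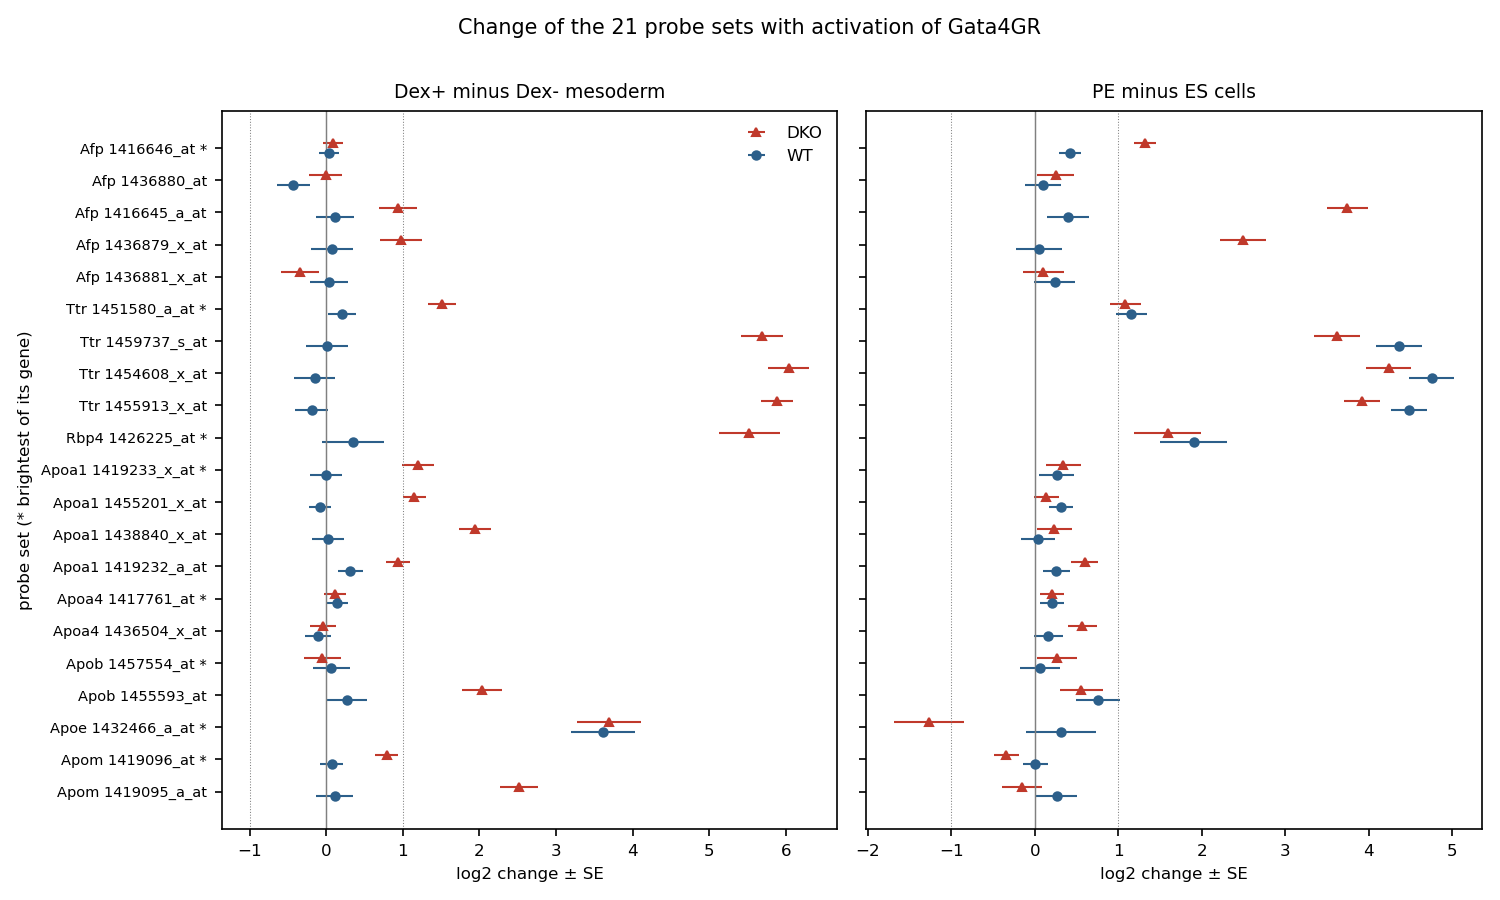
Log2 change (horizontal axis) with standard error of the 21 probe sets (vertical axis, grouped by gene, asterisk for the brightest of each gene) in DKO cells (triangles) and WT cells (circles), for Dex+ minus Dex- mesoderm on the left and PE minus ES cells on the right. Dotted lines mark 2-fold. With Dex in mesoderm 11 probe sets of 6 genes passed in DKO cells and 1, that of Apoe, in WT cells.

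Counted over the 8 genes, 4 were higher in DKO Dex+ than in DKO Dex- cells (Ttr, Rbp4, Apoa1 and Apoe), against 4.64% of all genes. In WT cells it was 1 of 8, Apoe, against 1.15% of all genes. The median change of the 8 was 1.00 in DKO and 0.11 in WT, beside medians over all genes of 0.013 and -0.002. On probe sets, 11 of 21 from 6 genes were higher in DKO, against 3.15% of all probe sets. The difference of the responses passed for 3 of 8 (Ttr, Rbp4 and Apoa1, all larger in DKO), against 2.73% of all genes, and for 10 of 21 probe sets from 5 genes, against 1.59%.

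Between the genotypes, 4 of 8 were higher in DKO in Dex+ cells (Afp, Ttr, Rbp4 and Apoa1), against 4.82% of all genes, and 13 of 21 probe sets from 6 genes, against 3.14% of all probe sets. In Dex- cells only Afp was higher, against 3.51%, with 4 of its 5 probe sets, against 2.2%. In PE Afp was higher, against 1.13%, with 3 probe sets, against 0.724%, and Apoe was lower, against 0.824% of all genes. None of the 8 passed in ES cells, where 1.39% of genes did, or in Flk1(+) cells, where 0.698% did. None of the 21 probe sets passed in limma there either, and at an unadjusted p under 0.05 limma gave 2 of the 8 genes in ES cells (Afp and Apom) and 0 in Flk1(+) cells.

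From ES cells to PE, Afp, Ttr and Rbp4 were higher and Apoe was lower in DKO, against 8.13% and 8.18% of all genes. In WT Ttr and Rbp4 were higher, against 7.68%. On probe sets it was 8 of 21 in DKO, against 6.02%, and 5 of 21 in WT, against 5.34%. None of the 8 genes differed past the threshold in PE response between genotypes, where 1.36% of genes did (2 at an unadjusted limma p under 0.05), and 2 Afp probe sets did, against 0.291% of all probe sets. All ES arrays were scanned on a day of their own, so that these changes and scan day cannot be told apart.

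From ES to Flk1(+) cells none of the 8 passed, against 10.2% of all genes in DKO and 12.5% in WT, with 1 and 0 at an unadjusted limma p under 0.05. From Flk1(+) to Dex- cells Apoe was lower in both genotypes, against 8.39% in DKO and 7.79% in WT, and Afp was higher in DKO, against 8.23%. Dex+ mesoderm against PE gave 1 gene higher in DKO (Rbp4, against 2.73% of all genes) and 2 lower in WT (Rbp4 and Apoe, against 6.2%). On probe sets 7 of 21 from 5 genes were higher in DKO Dex+ cells than in DKO PE, against 1.7%. The comparisons share groups, so that their counts are not independent of each other.

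Genes of the same pathways were examined as lists. Of those named, Clu, Pltp, Cubn, Scarb1, Vldlr, Sox17 and Hnf4a were read by probe sets with _x_at or _s_at names, open to cross-hybridisation. Among 19 other apolipoproteins and plasma carriers measured, 3 rose with Dex in DKO cells: the fibrinogen chain Fgb (2.11 ± 0.17, at 6.40 and 6.72 with Dex and 4.57 and 4.33 without it), the chaperone Clu (1.66 ± 0.31) and Apoa2, a protein of high-density lipoprotein (1.02 ± 0.18). The median over the list was 0.14, beside 0.01 over all genes. In WT cells only Clu rose (1.34 ± 0.31).

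Among 14 genes of lipoprotein assembly and remodelling none rose and 2 fell in DKO cells with Dex, where 4.64% of all genes rose and 4.99% fell. The 2 were the phospholipid transfer protein Pltp (-1.59 ± 0.39) and the lipid droplet protein Plin2 (-1.01 ± 0.25). The median change over the list was 0.12. Mttp, which loads lipid onto Apob, was at 7.63 and 7.98 in DKO Dex+ cells, against 6.72 and 6.85 in WT Dex+ cells, and higher there by 1.02 ± 0.17. Lpl, the lipase that unloads lipoproteins, rose with Dex by 3.47 ± 0.25 in WT cells but changed by 0.81 in DKO cells, which was under 2-fold. Its level without Dex was already 9.87 and 9.52 in DKO, against 7.56 and 7.19 in WT.

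Receptors went both ways, 3 up and 3 down of 10 measured in DKO cells with Dex, beside the same 4.64% and 4.99% of all genes, and their median change was 1.07. Cubn (5.08 ± 0.41) and Amn (3.38 ± 0.27), which together form the cubilin uptake complex of visceral endoderm, and Lrp8 (1.65 ± 0.22) rose in DKO cells with Dex, whereas Lrp1 (-3.34 ± 0.41), the high-density lipoprotein receptor Scarb1 (-1.76 ± 0.22) and Vldlr (-1.26 ± 0.36) fell. None of the 10 passed in WT cells. Cubn was at 12.06 and 11.52 in DKO Dex+ cells, against 6.78 and 6.64 in DKO Dex- cells, and it was as high in PE, at 11.48 and 12.06 in DKO and 11.90 and 12.67 in WT.

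Of 8 genes of retinoid binding and metabolism, Cyp26a1, which breaks down retinoic acid, rose by 4.15 ± 0.24 and the reductase Dhrs3 by 1.18 ± 0.22, and the retinoic acid binding protein Crabp2 fell by 1.88. In WT cells Cyp26a1 rose by 1.09 ± 0.24. Stra6, the receptor for Rbp4, was higher in DKO PE than in WT PE by 1.24 ± 0.23 and did not pass with Dex in mesoderm.

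Of 14 endoderm and liver transcription factors, 7 rose and none fell with Dex in DKO cells: Sox17 (5.34 ± 0.73), Foxa2 (4.41 ± 0.45), Gata4 (3.73 ± 0.20), Sox7 (2.98 ± 0.23), Gata6 (2.95 ± 0.28), Hhex and Hnf4a, a nuclear receptor that drives many apolipoprotein genes in liver (1.44 ± 0.20). In WT cells 3 rose, Foxa2, Sox7 and Gata4. Sox17 in WT cells was at 8.85 and 9.49 with Dex and at 5.78 and 7.16 without it, a change that did not pass. Whether these factors account for the changes in the carriers was not tested. The Gata4 probe set read 4.81 to 5.49 in ES cells, which carried Gata4GR. In Flk1(+) cells it read 7.99 (WT) and 8.73 (DKO) in the parental lines and 8.12 (WT) and 8.39 (DKO) in the transgenic clones. Whether this probe set reads the transgene was not tested.

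**Figure D4:**
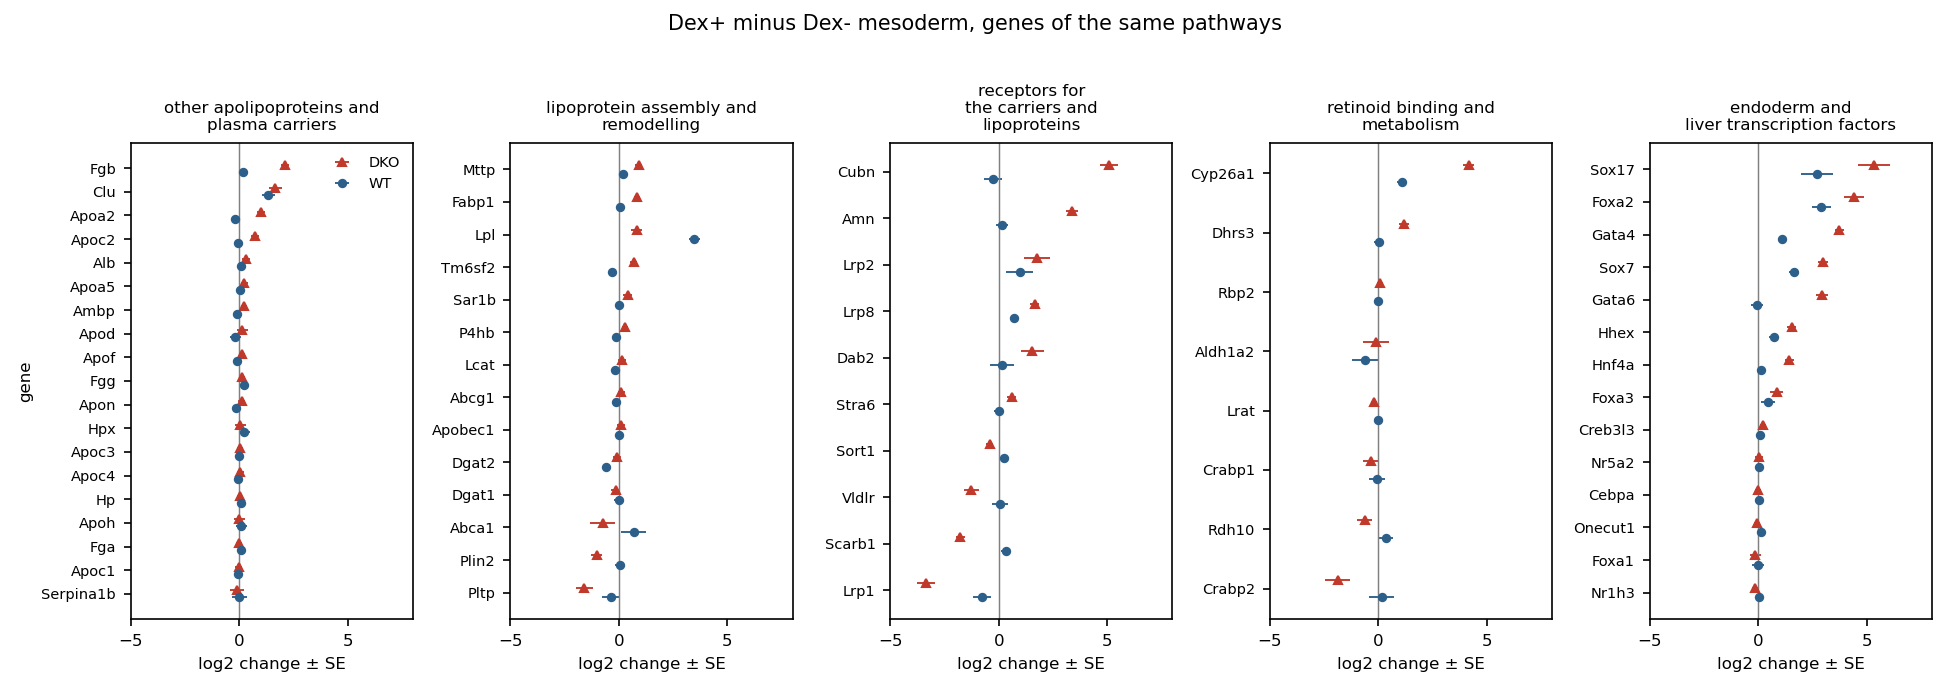
Log2 change from Dex- to Dex+ mesoderm (horizontal axis) with standard error of the genes of 5 pathway lists (vertical axis, ordered by the DKO value) in DKO cells (triangles) and WT cells (circles). Cubn (5.08) and Amn (3.38) lead the receptors, Fgb (2.11) the other carriers and Sox17 (5.34) the transcription factors in DKO cells, and Lpl (3.47) stands out in WT cells.

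The genes whose pattern was most like that of each member were ranked by Pearson r over the 20 arrays, among 3402 or 3403 named genes whose group means spanned at least 2. These are descriptions, since arrays of a group share a culture condition and few groups set most of the range. Rbp4 was most like Fgb (0.938), Nepn (0.937) and Rab17 (0.921). Afp was most like Cmbl (0.948), Mgst2 (0.915) and Asz1 (0.909), and Asz1 is a germline gene. Apoe was most like Cldn7 (0.891), Tuba4a (0.883) and Gldc (0.835).

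For genes whose brightest probe set spanned less than 2, the probe set with the widest span was ranked in addition, a choice made after the values were seen. Ttr was then most like Klb (0.977), Cited1 (0.968) and Rab3il1 (0.963). Apob was most like Rbp4 (0.962), Apoa1 most like Scin (0.962) and Apom most like Gstm1 (0.89). Among the 8 genes on these probe sets, Rbp4 correlated with Ttr at 0.876, with Apoa1 at 0.891, with Apom at 0.827, with Afp at 0.629 and with Apoe at 0.324.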

How the data were processed

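Total RNA was labelled in 2 cycles, hybridised to Affymetrix mouse arrays and summarised by the authors with RMA, and the deposited values are log2 signals. The RMA version, and whether all arrays were summarised together, are not given in the sources used here, and raw intensities were not used. Scan day and chip lot (unit other) were read from the deposited experiment files, and scan day served as a batch. Chip lot was not fitted. 34958 of 45101 probe sets had 1 gene symbol. limma 3.58.1 (R 4.3.3) was fitted to all 20 arrays with 1 mean per group (10 residual and 4.54 prior degrees of freedom), with Benjamini-Hochberg adjustment over 18193 genes, or over 45037 probe sets for the other probe sets of the 8 genes. The threshold was an adjusted p under 0.05 and at least 2-fold. The script was tested on simulated data. The study's SAM test was not run, since its settings are not given in the sources used here. The number of arrays limits the precision, and p-values rest on the spread between 2 arrays of a group, pooled over all groups. These were cultures of a clone, except in Flk1(+) cells, where replicate 1 was the parental line. There 880 (WT) and 698 (DKO) genes were 2-fold apart between replicates, against 20 (WT PE) to 256 (WT Dex+) in the other groups. That spread enters the standard errors of all comparisons. In both Flk1(+) groups the replicates also differed in scan day and chip lot, so that line, scan day and lot cannot be told apart there.

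The 8 genes and the lists were chosen with earlier results of these data known. All 8 were named, then up to 5 genes per pathway list that passed with Dex in DKO cells or in its difference between genotypes, and the 3 genes most like each member. Hhex, Hnf4a, Vldlr, Mttp, Stra6, the neighbouring genes and the macrophage markers were named in addition, after their values were seen. Alternatives were other probe sets, filters, fold limits, normalizations, scan day and replicate blocks, and leaving out each array.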

Additional observations from a re-analysis of the deposited data

Results flagged for a closer look

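8 results differed between the genotypes by a test of the difference itself, all larger in DKO cells. For the response of mesoderm to Dex these were Rbp4 (5.171), Ttr (1.305 on the brightest probe set and 6.189 on 1454608_x_at), Apoa1 (1.202 on the brightest and 1.923 on 1438840_x_at), Apob (1.76 on 1455593_at) and Apom (2.407 on 1419095_a_at). For the response of ES cells to Dex it was Afp (3.344 on 1416645_a_at). The probe sets other than the brightest were singled out after their values were seen. Those with _x_at names, and the brightest of Apoa1, are open to cross-hybridisation. Groups of 2 arrays are too small to test for a single array that stands apart.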

How the results depend on the processing

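With the replicate number as a block, the counts of the 8 genes past the threshold stayed the same in all 17 comparisons (4 with Dex in DKO cells, 3 for the difference in Dex response). The deviations of same-numbered arrays correlated at 0.175 to 0.36 between DKO and WT cells of a state, which also share scan day and chip lot, and at -0.262 to 0.361 between states of a genotype, and no label gives a shared culture. In a separate fit of only the groups compared, added after the data were seen, crossed numbers gave 2592 genes for WT Dex- against Flk1(+) cells and the given numbers 2275, and for WT Dex+ cells against PE 2323 and 2254.

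Of the called single-gene results under all alternatives, 387 were unchanged, 35 kept their direction but fell short of the threshold, 5 moved and 2 reversed. The 2 were Afp on probe set 1436880_at, DKO against WT, at -0.004 in PE and -0.377 in Dex- cells.

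The counts of the 8 genes that moved by over 1.5 times were as follows, with some smaller moves of 1 gene, among them 3 in place of 4 for Dex in DKO and DKO PE against ES and 2 in place of 3 for the Dex response without the lowest 40% of genes, and 5 in place of 4 with no minimum fold for Dex in DKO and DKO against WT in Dex+. Asking for 4-fold gave 1 in place of 2 for DKO against WT in PE, 2 in place of 4 in Dex+ cells, 0 in place of 2 for WT PE against ES and WT Dex+ against PE, 0 in place of 4 for DKO PE against ES, 1 in place of 2 for DKO Dex- against Flk1(+), 2 in place of 4 for Dex in DKO and 1 in place of 3 for the Dex response. Leaving out the lowest 40% of genes, which removes Afp and Apoa1, gave 1 (DKO against WT in PE), 0 (Dex-), 2 (Dex+), 1 (DKO Dex- against Flk1(+)) and 2 (DKO Dex+ against PE). Probe sets whose names end in _x_at, _s_at or _a_at were also left out, which removes Apoe (_a_at), Ttr and Apoa1 among others. This gave 1 (DKO against WT in PE), 2 (Dex+), 1 (WT PE against ES), 0 (WT Dex- against Flk1(+)), 0 (Dex in WT), 1 (WT Dex+ against PE), 2 (DKO PE against ES), 1 (DKO Dex- against Flk1(+)), 1 (Dex in DKO) and 1 (Dex response). With no minimum fold it was 1 for DKO Flk1(+) against ES, 4 for DKO Dex+ against PE and 1 for the PE response. The mean of a gene's probe sets gave 3 for DKO Dex+ against PE and 1 for the PE response, fitting only the groups compared gave 2 and 1, the scan day block gave 2 for WT Dex- against Flk1(+), and testing all probe sets gave 1 for WT Dex+ against PE. The cause was not tested otherwise.

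Leaving out 1 array at a time gave counts of 2 to 3 for the Dex response, 3 to 4 for Dex in DKO and 1 to 1 in WT, 3 to 4 for DKO against WT in Dex+, 1 to 1 in Dex- and PE, 0 to 0 in ES and Flk1(+) cells, 1 to 2 for DKO and 0 to 1 for WT Dex+ against PE, 2 to 3 for DKO and 1 to 2 for WT PE against ES, 2 to 2 for DKO and 1 to 1 for WT Dex- against Flk1(+), and 0 to 0 for both Flk1(+) against ES comparisons and the PE response.

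Over all genes, 252 passed for DKO against WT in ES and 120 without the lowest 40%, and for the PE response 248 and 128. Fitting only the groups compared gave 0 in place of 127 for DKO against WT in Flk1(+) cells, 156 in place of 291 for Dex in WT and 525 in place of 248 for the PE response. Without both parental lines 551 passed in Flk1(+) cells, and 394 without WT replicate 1, 349 without WT replicate 2 and 385 without DKO replicate 1. Leaving out 1 array also gave 161 for Dex in WT (without WT Dex+ replicate 2), 126 (WT ES replicate 2) and 156 (DKO ES replicate 2) for DKO against WT in ES, 235 and 223 in place of 356 in PE (WT and DKO PE replicate 2), and 132 to 156 for the PE response (WT ES replicate 2 or any PE array). Testing all probe sets counts probe sets, not genes, and raised counts by up to 1.89 times.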
